A study of Mus musculus with 8 samples.

Results

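The 39 collagen genes of the mouse were followed through an ATAC-seq experiment, which reads open chromatin as the DNA that a transposase can reach. Members were the Col genes of a fixed list. A consensus region of open chromatin (mm10) belonged to a collagen gene when that gene's body was the nearest of any protein-coding gene, with the region inside it or at most 50 kb away. By this rule 194 of 57417 regions fell to 35 of the 39 genes, and Col10a1, Col9a2, Col26a1 and Col11a2 had none. A collagen locus held 1 to 17 regions, with a median of 4, against a median of 2 over all 14903 gene loci. The cells were PB3, a mouse breast cancer line labelled Er-/Pr-/Her2-. PB3-Parental was untreated, and PB3-ERI-R, PB3-PAC-R and PB3-VIN-R were derivatives made resistant to eribulin (spelled Erubilin in the titles), paclitaxel and vinorelbine with 300, 500 and 800 nM of each drug. All lines grew in the same medium, and no group carries a transgene or a deletion by its labels. The labels speak of resistant clones without saying whether each line came from 1 clone. Each line had 2 libraries that no label ties to separate cultures, so a p-value here weighs a change only against the difference between 2 libraries of a line, which may be technical.

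Collagens are the triple-helical proteins of the extracellular matrix. Fibrillar collagens assemble into the cables of skin, bone, tendon and cartilage, and in carcinomas are laid down chiefly by fibroblasts. Basement membrane collagens form or anchor the sheet beneath epithelia, transmembrane collagens sit in the plasma membrane of cells including epithelial ones, and fibril-associated collagens decorate the fibrils. The list held 11 fibrillar genes with 48 regions, 7 genes of the basement membrane and its zone with 59, 4 transmembrane genes with 20, 9 fibril-associated genes with 41, 4 beaded filament and von Willebrand domain genes with 18, 3 short-chain network genes with 8, and Col26a1. Open chromatin at a gene is not its expression, and no RNA is analysed here.

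The promoter windows of 5 genes are shown because they cover the kinds of start site among these genes: lost in PB3-ERI-R (Col7a1, and the upstream start of Col18a1), next to a lost region (Col8a1), in a region that did not pass the test (Col6a2) and next to a gained region (the internal start of Col9a1). Each is the 250 bases before a RefSeq start on GRCm38.p6, 5′ to 3′ on the gene's strand. The windows of Col18a1 and Col6a2 reach upstream beyond the region over their start and lie only partly in it. Capitals mark matches on either strand to 7 motifs, spelled out after the sequences.
Col7a1, chr9:108953336-108953585, plus strand: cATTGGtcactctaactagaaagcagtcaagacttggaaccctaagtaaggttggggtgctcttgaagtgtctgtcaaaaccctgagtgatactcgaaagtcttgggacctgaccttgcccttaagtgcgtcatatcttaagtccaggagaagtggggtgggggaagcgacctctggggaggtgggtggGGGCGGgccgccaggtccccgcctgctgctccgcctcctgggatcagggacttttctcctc
Col18a1, chr10:77166531-77166780, minus strand: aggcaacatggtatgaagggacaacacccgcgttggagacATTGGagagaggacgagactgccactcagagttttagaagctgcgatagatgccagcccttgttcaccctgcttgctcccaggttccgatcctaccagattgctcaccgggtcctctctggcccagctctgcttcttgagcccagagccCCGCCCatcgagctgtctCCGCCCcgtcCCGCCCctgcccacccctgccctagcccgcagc
Col8a1, chr16:57754738-57754987, minus strand: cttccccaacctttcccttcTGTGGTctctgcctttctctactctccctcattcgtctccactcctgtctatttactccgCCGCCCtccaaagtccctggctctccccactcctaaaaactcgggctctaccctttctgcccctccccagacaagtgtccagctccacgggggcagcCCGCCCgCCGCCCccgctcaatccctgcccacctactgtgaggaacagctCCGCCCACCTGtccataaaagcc
Col6a2, chr10:76623631-76623880, minus strand: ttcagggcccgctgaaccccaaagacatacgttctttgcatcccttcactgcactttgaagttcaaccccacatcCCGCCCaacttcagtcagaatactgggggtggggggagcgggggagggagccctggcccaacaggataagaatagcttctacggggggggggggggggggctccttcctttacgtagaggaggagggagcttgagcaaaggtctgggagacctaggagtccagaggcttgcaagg
Col9a1, chr1:24194953-24195202, plus strand: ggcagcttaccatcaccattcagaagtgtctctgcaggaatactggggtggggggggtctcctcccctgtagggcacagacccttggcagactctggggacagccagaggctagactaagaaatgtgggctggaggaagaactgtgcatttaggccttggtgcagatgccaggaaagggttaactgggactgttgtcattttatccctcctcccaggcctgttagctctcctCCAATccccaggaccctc

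The RefSeq table held 33 such windows for 30 of the 39 genes, and shares are set beside those of 21263 windows of protein-coding genes. The Sp motif, spelled GGGCGG, stood in 17 of the 33 (51.5%, all windows 42.6%). The NF-Y motif, spelled CCAAT, stood in 11 (33.3%, all windows 35.4%). The E-box read by ZEB factors, spelled CAGGTG with either G or A as its last letter, stood in 4 (12.1%, all windows 24.5%). The TATA box, spelled TATAAA, stood in 5 (15.2%, all windows 11.6%). The TEAD motif, spelled GGAATG, stood in 4 (12.1%, all windows 11.7%), and the RUNX motif, spelled TGTGGT, in 3 (9.09%, all windows 12.4%). The AP-1 motif, spelled TGANTCA, stood in 1, that of Col6a1 (3.03%, all windows 6.13%). In the windows shown, Col18a1 had 1 NF-Y match and 3 Sp matches, these within 61 bases of its start, and Col8a1 had 1 RUNX match and 4 Sp matches, of which the nearest shares a base with a ZEB E-box match. The window of Col7a1 had 1 NF-Y and 1 Sp match, that of Col6a2 1 Sp match and that of Col9a1 1 NF-Y match. Of the 33 collagen windows, 11 (33.3%) overlapped a consensus region, against 49.5% of all windows.

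Libraries held 10521964 to 24052237 counts. On log2 CPM (counts scaled to library size) the 2 libraries of 1 line correlated at 0.968 to 0.977 across regions, and PB3-ERI-R with any other line at only 0.133 to 0.23, against 0.948 to 0.982 among the others. PB3-ERI-R thus stands apart as a whole line, so its collagen values are set beside those of all regions and loci. All 6 epithelial markers had regions, with a summed locus level of 459 to 598 CPM in PB3-Parental and 889 to 1002 in PB3-ERI-R, where 3 rose. The 5 fibroblast and stroma markers with regions, of 7, summed to 117 to 119 CPM in PB3-Parental and at least 123 CPM in PB3-ERI-R, and 1 rose and 2 fell (Lum and Fap had no region). Summed levels of 3 of 4 endothelial markers were 143 to 156 and 75.1 to 75.9 CPM, and of 3 of 5 leukocyte markers 53.1 to 75.9 and 11.5 to 13.2 CPM (Cdh5, Cd68 and Cd3e had no region). The part of other cells in the collagen values was not tested, and in bulk libraries fewer cells with an open locus and less opening per cell cannot be told apart. For copy number, the median log2 ratio to PB3-Parental of all regions in the 5 Mb window of each locus ran from -0.93 (Col1a2) to 2.46 (Col11a1) in PB3-ERI-R, and reached 0.5 either way at 5 loci. In PB3-PAC-R and PB3-VIN-R it stayed within -0.139 and 0.255. The median is taken from accessibility itself and includes the locus's own regions. By it, copy number and a change in opening over the whole window cannot be told apart.

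Collagen loci lost accessibility in PB3-ERI-R more often than they gained it. Summed over its regions, a locus fell in 24 of 35 cases, rose in 8 and did not pass the test in 3 (edgeR quasi-likelihood test, Benjamini-Hochberg adjusted p under 0.05). Over all loci 30.3% fell and 28.0% rose, so the collagens' 68.6% lies above the background for losses and their 22.9% below it for gains. The median log2 fold change was -0.72 for collagen loci and -0.0039 for all loci. In 33 of the 35 the libraries of the 2 lines did not overlap, against 78.8% of all loci. The share that fell was above that of all loci in each bin by number of regions: 4 of 6 loci with 1 region (all loci 22.7%), 4 of 7 with 2 or 3 (all 31.3%) and 16 of 22 with 4 or more (all 38.6%). The last bin is open-ended and not matched within: 13 of its 22 collagen loci held 7 or more regions, against 1745 of all 4283. With offsets for the 5 Mb windows 22 collagen loci fell and 7 rose, while over all 14903 loci 4986 fell and 3629 rose. The medians were then -0.76 for collagen loci and -0.13 for all loci. Below, the level of a locus is given in CPM of all counts in regions that have a gene, and the level of a single region in CPM of all counts in regions. Loci and regions were also scaled separately. In PB3-ERI-R Col3a1, with 1 region, changed by -2.95 as a locus and -2.675 as a region, and Col4a4, also with 1, by 5.09 and 5.36. A small fall of a locus, as at Col27a1 or Col17a1, would thus read smaller on the region scale.

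**Figure D1:**
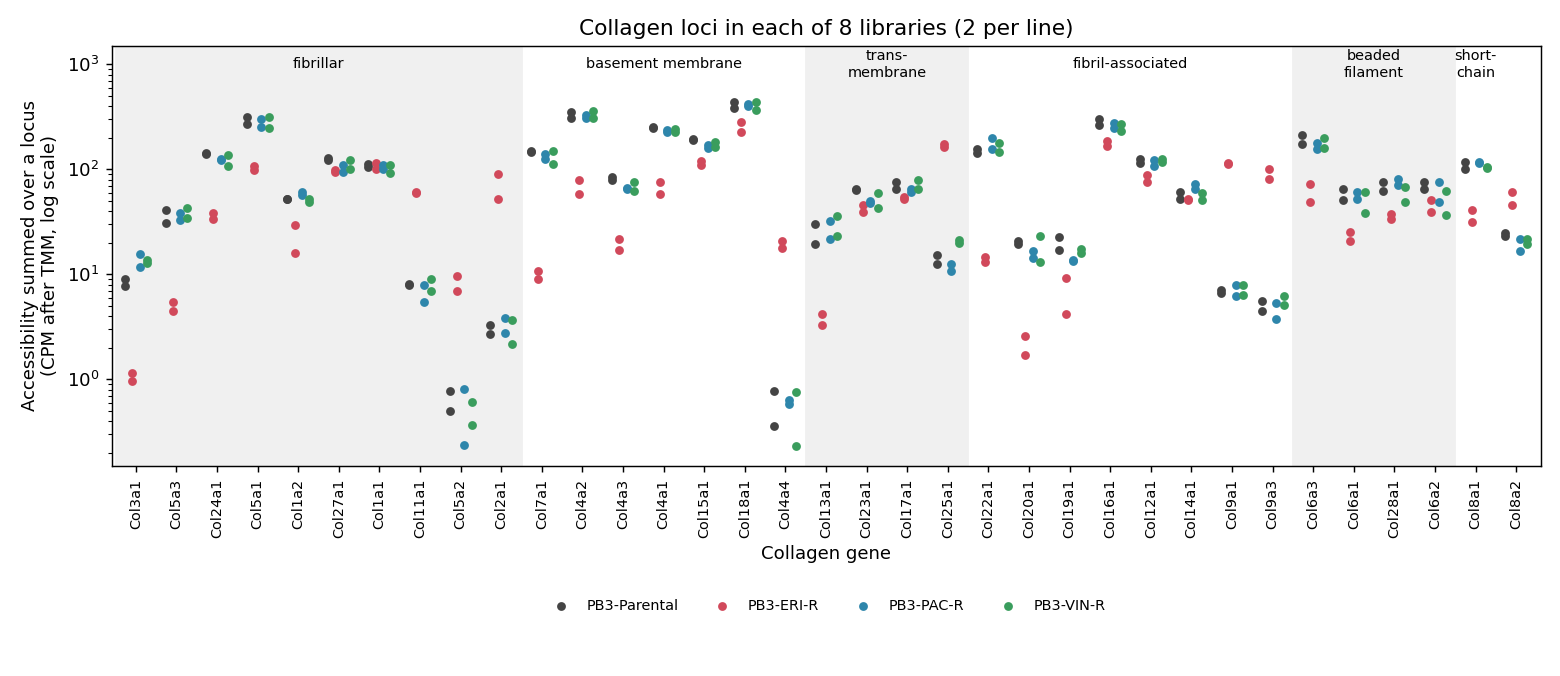
Summed accessibility of the 35 collagen loci in each of the 8 libraries (CPM after TMM, log axis), grouped by class and ordered within a class by the change in PB3-ERI-R. The red points of PB3-ERI-R stand below those of PB3-Parental at the 24 loci that fell and above them at the 8 that rose, while PB3-PAC-R and PB3-VIN-R lie near PB3-Parental.

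By type, basement membrane genes had the lowest median change. Of 7 loci 6 fell and 1 rose, with a median log2 fold change of -1.90. Of 10 fibrillar loci 6 fell and 3 rose (median -0.80), and of 4 transmembrane loci 3 fell and 1 rose (median -0.50). Fibril-associated loci split 5 down and 2 up of 8 (median -0.61), beaded filament loci 3 down and 0 up of 4 (median -1.15), and the 2 short-chain loci 1 down and 1 up. The summed level of a type, in CPM of all counts in regions, gives another view. Basement membrane regions together read 1235 and 1168 CPM in PB3-Parental and 591 and 553 in PB3-ERI-R. Fibrillar regions read 679 and 638 CPM in PB3-Parental and 558 and 499 in PB3-ERI-R. Transmembrane regions went the other way, with 153 and 143 CPM in PB3-Parental and 286 and 266 in PB3-ERI-R. Without Col25a1 (a split made after its values were seen) the other 3 read 143 and 129 CPM in PB3-Parental and 106 and 100.4 in PB3-ERI-R. Differences between types were not tested.

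**Figure D2:**
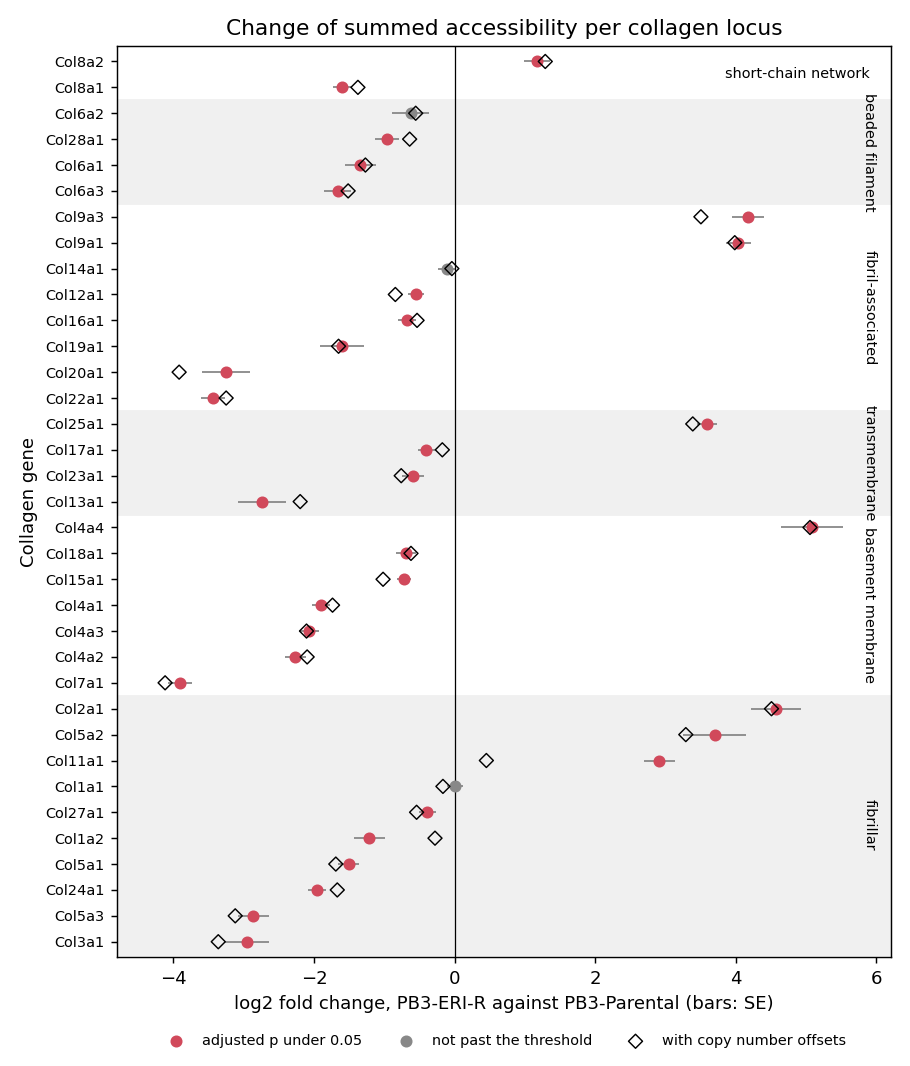
Log2 fold change of each collagen locus in PB3-ERI-R against PB3-Parental (circles, bars are SE, from 2 libraries a line), with the value under copy number offsets as diamonds. The 8 loci that rose reach from 1.17 (Col8a2) to 5.09 (Col4a4) and the 24 that fell from -0.39 (Col27a1) to -3.91 (Col7a1), and the diamonds of Col11a1 and Col1a2 lie far from their circles.

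Among fibrillar collagens, the genes of type I and III collagen, the main fibrils of skin and stroma, did not move as one. Col1a1, the alpha 1 chain of type I (chr11:94936224-94953042, 5 regions), read 112 and 104 CPM in PB3-Parental, 116 and 101 in PB3-ERI-R, 111 and 102 in PB3-PAC-R, and 109 and 93.4 in PB3-VIN-R. All 4 lines overlapped (log2 fold change 0.01 ± 0.12, adjusted p = 0.957). Summing only regions inside the gene, with sums scaled anew, gave -0.59 (adjusted p = 0.0130). In the region fit no Col1a1 region was lost, and the lowest log2 fold change was -0.30. Col1a2, its partner chain (chr6:4505618-4541543, 4 regions), read 51.8 and 52.6 CPM in PB3-Parental, 15.9 and 29.5 in PB3-ERI-R, 56.7 and 60.9 in PB3-PAC-R, and 52.4 and 49.4 in PB3-VIN-R. PB3-ERI-R stood below the rest (log2 fold change -1.21 ± 0.22, adjusted p = 0.000695). But the window median of Col1a2 was -0.93 over 28 regions, its own 4 among them, and the offsets left -0.28 (adjusted p = 0.298). Col3a1, the chain of type III (chr1:45311538-45349706, 1 region), read 9.09 and 7.67 CPM in PB3-Parental, 1.16 and 0.975 in PB3-ERI-R, 11.7 and 15.8 in PB3-PAC-R, and 12.8 and 13.6 in PB3-VIN-R. Here PB3-ERI-R was lowest without overlap (log2 fold change -2.95 ± 0.31, adjusted p = 1.40e-05).

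The next gene along chromosome 1, Col5a2 (chr1:45374331-45503282, 1 region), encodes a type V chain that takes part in starting fibrils, and went the opposite way to Col3a1. It read 0.501 and 0.775 CPM in PB3-Parental, 6.98 and 9.75 in PB3-ERI-R, 0.810 and 0.236 in PB3-PAC-R, and 0.615 and 0.368 in PB3-VIN-R, with 3 to 13 counts in each library of the other lines and 78 and 90 in PB3-ERI-R (log2 fold change 3.70 ± 0.45, adjusted p = 4.07e-05). Its partner chain Col5a1 (chr2:27886381-28039510, 15 regions) read 314 and 269.8 CPM in PB3-Parental, 108 and 97.95 in PB3-ERI-R, 303 and 255 in PB3-PAC-R, and 318 and 247 in PB3-VIN-R. PB3-ERI-R was below all other libraries (log2 fold change -1.51 ± 0.15, adjusted p = 9.39e-06), and 13 of the 15 regions were lost, both at the gene's start among them. Col24a1, a minor fibrillar collagen (chr3:145292472-145552013, 8 regions), read 141 and 142 CPM in PB3-Parental, 38.6 and 34.02 in PB3-ERI-R, 124 and 122 in PB3-PAC-R, and 137 and 108 in PB3-VIN-R. It was lowest in PB3-ERI-R (log2 fold change -1.96 ± 0.13, adjusted p = 5.81e-07), and all 8 regions were lost. Col5a3, the remaining type V gene, fell by 2.86 ± 0.22. Col27a1 fell slightly (log2 fold change -0.39 ± 0.12, adjusted p = 0.0174), a call lost without the first library of PB3-ERI-R (adjusted p = 0.0712) or of PB3-Parental (0.0674).

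The fibrillar loci that rose were Col5a2, Col2a1 and Col11a1. Col2a1, the main collagen of cartilage (chr15:97975602-98004724, 2 regions), read 3.29 and 2.71 CPM in PB3-Parental, 91.1 and 52.2 in PB3-ERI-R, 3.83 and 2.76 in PB3-PAC-R, and 3.69 and 2.16 in PB3-VIN-R. The PB3-ERI-R libraries differ from each other but both stand far above the rest (log2 fold change 4.57 ± 0.35, adjusted p = 1.38e-06). Col11a1, a fibril-nucleating chain of cartilage (chr3:114030479-114220756, 4 regions), read 8.02 and 7.98 CPM in PB3-Parental, 60.6 and 60.1 in PB3-ERI-R, 7.87 and 5.44 in PB3-PAC-R, and 9.13 and 6.90 in PB3-VIN-R. Its rise (log2 fold change 2.91 ± 0.22, adjusted p = 1.17e-06) lies in a 5 Mb window of 22 regions, its own 4 among them. With offsets for the window median, 2.46 over these regions, Col11a1 kept 0.45 (adjusted p = 0.0895). Even so, its 4 regions were unlike: at chr3:114031863-114032250, just past the start, the level was 5.66 and 5.86 CPM in PB3-Parental and 7.89 and 6.75 in PB3-ERI-R (log2 fold change 0.35 ± 0.27, adjusted p = 0.26), while the other 3 regions rose by 5.24 to 6.01.

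Of the 8 fibril-associated loci, 2 rose, both of type IX. Col9a1 and Col9a3 encode chains of type IX collagen, which coats type II fibrils in cartilage. Col9a1 (chr1:24177589-24252738, 4 regions) read 7.16 and 6.67 CPM in PB3-Parental, 114 and 113 in PB3-ERI-R, 6.18 and 7.96 in PB3-PAC-R, and 7.99 and 6.39 in PB3-VIN-R. Col9a3 (chr2:180598102-180622192, 2 regions) read 5.58 and 4.50 CPM in PB3-Parental, 102 and 80.8 in PB3-ERI-R, 5.37 and 3.78 in PB3-PAC-R, and 6.29 and 5.15 in PB3-VIN-R. In both, PB3-ERI-R stood far above the other lines, which lay close together. Col9a1 rose (log2 fold change 4.03 ± 0.18, adjusted p = 6.10e-08), and so did Col9a3 (log2 fold change 4.18 ± 0.23, adjusted p = 1.85e-07). Col9a2, the remaining type IX gene, had no region.

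The gains at Col9a1 lie away from its first start. The largest, at chr1:24226954-24227618 inside the gene, had 1 count over both libraries of PB3-Parental and 479 over those of PB3-ERI-R, a ratio of 765 (95% counting interval 137 to 30300, exact binomial). Another, at chr1:24195327-24196307, begins 124 bases past the internal start whose window is shown above, and read 0.963 and 0.399 CPM in PB3-Parental and 57.03 and 46.8 in PB3-ERI-R (log2 fold change 6.22 ± 0.39, adjusted p = 6.35e-09). No region overlapped the window of the first start. At Col9a3 the larger gain, at chr2:180604758-180605184 in the gene body, read 1.08 and 0.865 CPM in PB3-Parental and 57.3 and 46.7 in PB3-ERI-R (log2 fold change 5.72 ± 0.29, adjusted p = 1.80e-09). The larger region of Col2a1, chr15:97997581-97998293 in the gene body, read 0.542 and 0.799 CPM in PB3-Parental and 67.8 and 38.3 in PB3-ERI-R (log2 fold change 6.30 ± 0.38, adjusted p = 4.86e-09).

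Basement membrane collagens included the deepest loss of all collagen loci, at Col7a1, and losses at both main type IV genes. Col4a1 and Col4a2 encode the 2 chains of the common type IV network and are transcribed away from each other from 1 shared start on chromosome 8. Col4a1 (chr8:11198423-11312889, 14 regions) read 256 and 248 CPM in PB3-Parental, 58.9 and 75.96 in PB3-ERI-R, 239.8 and 228 in PB3-PAC-R, and 243 and 228 in PB3-VIN-R. Col4a2 (chr8:11312805-11449287, 13 regions) read 349.5 and 310.4 CPM in PB3-Parental, 58.8 and 78.8 in PB3-ERI-R, 327 and 307 in PB3-PAC-R, and 361 and 307 in PB3-VIN-R. In both genes PB3-ERI-R lay far below the other lines, which stood close together. Col4a1 fell (log2 fold change -1.90 ± 0.13, adjusted p = 5.83e-07), as did Col4a2 (log2 fold change -2.26 ± 0.15, adjusted p = 6.36e-07). The region over the shared start, chr8:11312233-11313287, ties between the genes and was counted with Col4a1. It read 33.8 and 27.6 CPM in PB3-Parental, 2.14 and 2.55 in PB3-ERI-R, 37.3 and 28.3 in PB3-PAC-R, and 34.1 and 35.3 in PB3-VIN-R. The level at the start was far lower in PB3-ERI-R than in the other 3 lines, which overlapped (log2 fold change -3.72 ± 0.25, adjusted p = 1.13e-08).

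Of the 27 regions of this pair 22 were lost, 1 was gained and 4 did not pass the test. The deepest losses form a cluster in the body of Col4a1, 48.5 to 53.9 kb from its start, where 4 regions fell by 4.07 to 5.92. The largest, chr8:11258510-11258952, read 16.1 and 27.8 CPM in PB3-Parental and 0.186 and 0.554 in PB3-ERI-R (log2 fold change -5.92 ± 0.48, adjusted p = 5.40e-08). Beyond the far end of Col4a1 losses were smaller, from -0.77 to -1.37, and the gained region, chr8:11165593-11166004, lay 32.4 kb outside the gene (4.94 and 3.86 CPM in PB3-Parental and 13.6 and 16.1 in PB3-ERI-R, log2 fold change 1.75 ± 0.33, adjusted p = 0.000218).

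**Figure D3:**
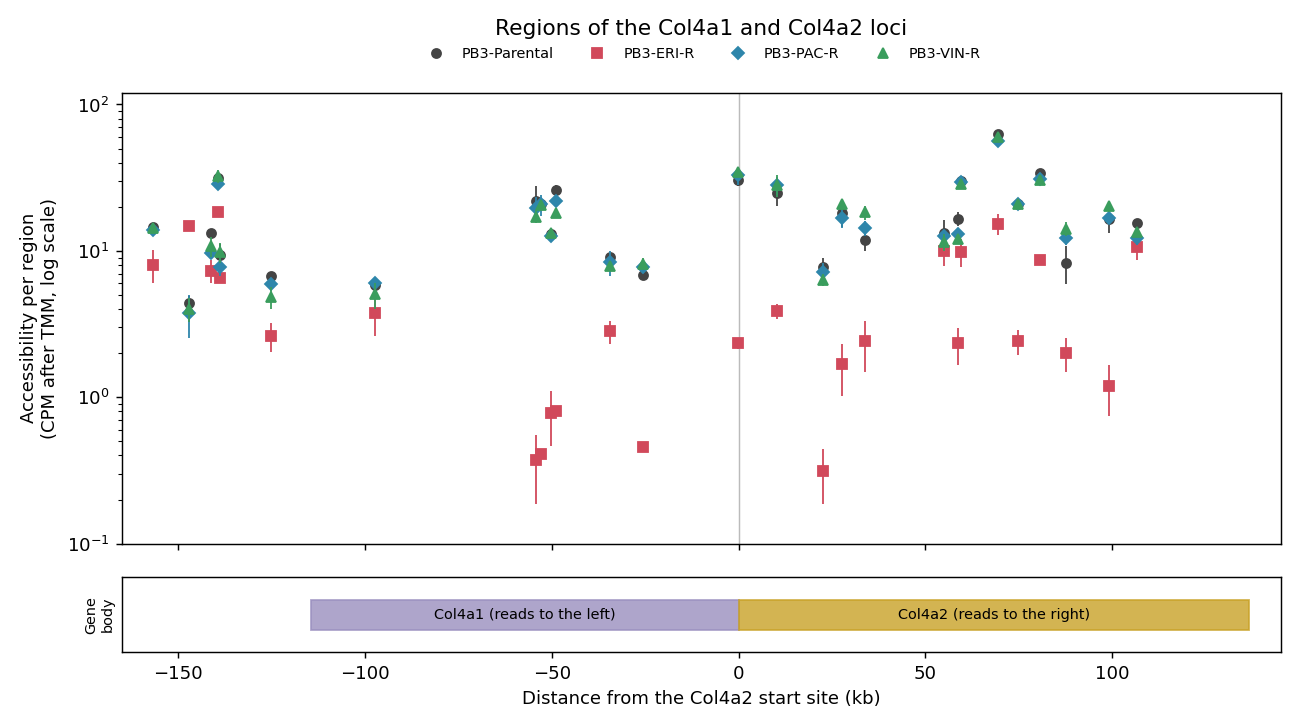
Accessibility of the 27 regions of the Col4a1 and Col4a2 loci by distance from the Col4a2 start site in kb (CPM after TMM, log axis; symbols are means of 2 libraries and lines join them). PB3-ERI-R (squares) lies below the other 3 lines over the shared start and at most regions of both genes, deepest about 50 kb into Col4a1, and above them at 1 region on the far left.

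Col4a3 and Col4a4, the chains of specialised basement membranes such as that of the kidney, overlap at their starts on chromosome 1 and moved apart. Col4a3 (chr1:82586921-82722059, 4 regions) read 84.6 and 79.9 CPM in PB3-Parental, 21.8 and 17.1 in PB3-ERI-R, 66.97 and 65.4 in PB3-PAC-R, and 76.2 and 62.97 in PB3-VIN-R. All 4 of its regions were lost, and PB3-ERI-R lay below every other library (log2 fold change -2.07 ± 0.15, adjusted p = 7.63e-07). Col4a4 (chr1:82448419-82587034, 1 region) read 0.358 and 0.775 CPM in PB3-Parental, 17.9 and 20.8 in PB3-ERI-R, 0.589 and 0.630 in PB3-PAC-R, and 0.757 and 0.230 in PB3-VIN-R. Its region, chr1:82476710-82477176 in the gene body and 110 kb from the start, held 5 to 16 counts in each library of the other lines and 200 and 192 in PB3-ERI-R. The log2 fold change was 5.09 ± 0.44 for the locus (adjusted p = 3.28e-06) and 5.36 for the region. The window of the Col4a4 start overlapped no region.

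Col7a1 encodes the anchoring fibril that fastens epithelial basement membranes to the stroma, and had the largest fall of any collagen locus. It (chr9:108953586-108984875, 3 regions) read 151 and 146 CPM in PB3-Parental, 9.03 and 10.8 in PB3-ERI-R, 139 and 124 in PB3-PAC-R, and 150.0 and 113 in PB3-VIN-R. PB3-ERI-R lay far below every other library (log2 fold change -3.91 ± 0.17, adjusted p = 5.81e-08). The region over its start, chr9:108952440-108953842, which covers the window shown above, read 63.1 and 65.6 CPM in PB3-Parental, 5.11 and 4.98 in PB3-ERI-R, 55.9 and 56.5 in PB3-PAC-R, and 61.6 and 52.8 in PB3-VIN-R. Its loss (log2 fold change -3.67 ± 0.17, adjusted p = 1.35e-09) was like that of the 2 regions in the gene body, which fell by 3.52 and 3.79.

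Col18a1 and Col15a1 encode the collagens of the basement membrane zone whose ends are released as endostatins. Col18a1 (chr10:77052178-77166530, 17 regions) read 439 and 381 CPM in PB3-Parental, 282 and 226 in PB3-ERI-R, 419 and 402 in PB3-PAC-R, and 436 and 370.4 in PB3-VIN-R. PB3-ERI-R was lowest without overlap (log2 fold change -0.69 ± 0.14, adjusted p = 0.00142), while its regions moved both ways: 9 were lost, 4 gained and 4 did not pass the test. The region over the upstream start, chr10:77165503-77166716, whose window is shown above, read 36.00 and 26.95 CPM in PB3-Parental, 13.7 and 9.97 in PB3-ERI-R, 35.6 and 28.2 in PB3-PAC-R, and 33.04 and 32.1 in PB3-VIN-R. It was lost (log2 fold change -1.40 ± 0.22, adjusted p = 4.15e-05). A region 1.60 kb past the downstream start, chr10:77111858-77112109, was gained and read 0.722 and 0.399 CPM in PB3-Parental and 11.3 and 10.1 in PB3-ERI-R (log2 fold change 4.22 ± 0.37, adjusted p = 1.15e-07). No region overlapped the window of that downstream start. Col15a1 (7 regions) fell by 0.72 ± 0.10, with 3 regions lost and 2 gained.

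Of the transmembrane collagens, Col13a1, Col17a1 and Col23a1 fell and Col25a1 rose. Col25a1, a brain collagen also found in amyloid plaques (chr3:130180358-130599884, 7 regions), read 12.6 and 15.3 CPM in PB3-Parental, 174 and 162 in PB3-ERI-R, 12.7 and 10.8 in PB3-PAC-R, and 20.01 and 21.2 in PB3-VIN-R. PB3-ERI-R was far above the rest (log2 fold change 3.59 ± 0.14, adjusted p = 4.45e-08), and 6 of 7 regions were gained. The region at its start, chr3:130180310-130180888, read 3.13 and 6.39 CPM in PB3-Parental, 23.6 and 23.03 in PB3-ERI-R, 1.54 and 2.53 in PB3-PAC-R, and 2.33 and 3.66 in PB3-VIN-R, a gain of 2.30 ± 0.35. Deeper in the gene, chr3:130328937-130329235 had 3 counts over both libraries of PB3-Parental and 469 over those of PB3-ERI-R, a ratio of 249.8 (95% counting interval 84.96 to 1216). The gains spread over 384 kb from the start, and the 1 region without a gain, chr3:130359832-130360167, read 2.77 and 3.39 CPM in PB3-Parental and 1.95 and 2.44 in PB3-ERI-R.

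Col13a1, a collagen of cell junctions (chr10:61838234-61979206, 3 regions), read 30.4 and 19.5 CPM in PB3-Parental, 3.31 and 4.23 in PB3-ERI-R, 32.2 and 21.9 in PB3-PAC-R, and 36.00 and 23.2 in PB3-VIN-R. PB3-ERI-R was lowest (log2 fold change -2.74 ± 0.34, adjusted p = 4.97e-05), and the most changed region, chr10:61944294-61944784 in the gene body, read 16.2 and 10.4 CPM in PB3-Parental and 0.279 and 0.332 in PB3-ERI-R (log2 fold change -5.42 ± 0.47, adjusted p = 1.12e-07).

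Col17a1, the hemidesmosome collagen that holds basal epithelial cells to the basement membrane (chr19:47646341-47692042, 6 regions), read 75.7 and 65.7 CPM in PB3-Parental, 52.8 and 54.4 in PB3-ERI-R, 65.8 and 60.6 in PB3-PAC-R, and 78.6 and 64.8 in PB3-VIN-R. Its small fall (log2 fold change -0.40 ± 0.13, adjusted p = 0.0191) was lost with copy number offsets (-0.17, adjusted p = 0.262), without the first library of PB3-Parental (-0.29, adjusted p = 0.138), and without either library of PB3-ERI-R (adjusted p = 0.0797 and 0.0564). Upstream of the gene, single regions moved in opposite directions. At 5.08 kb from its start, chr19:47697124-47697445 was gained and read 0.361 and 0.333 CPM in PB3-Parental and 22.2 and 21.5 in PB3-ERI-R (log2 fold change 5.94 ± 0.36, adjusted p = 5.16e-09). At 7.72 kb, chr19:47699763-47700113 was lost and read 15.05 and 14.9 CPM in PB3-Parental and 2.69 and 1.99 in PB3-ERI-R (log2 fold change -2.66 ± 0.28, adjusted p = 8.20e-07).

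Col23a1 (chr11:51289679-51583925, 4 regions) read 63.7 and 65.5 CPM in PB3-Parental, 45.9 and 39.7 in PB3-ERI-R, 50.04 and 47.4 in PB3-PAC-R, and 59.3 and 42.7 in PB3-VIN-R. PB3-ERI-R overlapped PB3-VIN-R and lay below PB3-Parental (log2 fold change -0.59 ± 0.16, adjusted p = 0.0074), a call lost without the second library of PB3-ERI-R (-0.48, adjusted p = 0.0585). The region at its start, chr11:51289547-51290379, read 18.4 and 24.1 CPM in PB3-Parental and 22.1 and 18.6 in PB3-ERI-R and did not pass the test (-0.06 ± 0.21), while in the gene body 2 regions fell by 4.25 and 4.35 and 1 rose by 0.56.

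Beyond type IX, the fibril-associated genes mostly fell. Col22a1, a collagen of tissue junctions such as muscle and tendon (chr15:71795795-72150979, 8 regions), read 158 and 142 CPM in PB3-Parental, 13.1 and 14.6 in PB3-ERI-R, 199 and 157 in PB3-PAC-R, and 179.9 and 147 in PB3-VIN-R. PB3-ERI-R lay far below the others (log2 fold change -3.44 ± 0.17, adjusted p = 1.05e-07), and 7 of 8 regions were lost. The most changed, chr15:71869759-71870360 in the gene body, read 32.4 and 32.9 CPM in PB3-Parental and 0.836 and 0.997 in PB3-ERI-R (log2 fold change -5.15 ± 0.26, adjusted p = 1.77e-09). Col20a1 fell by 3.25 ± 0.34, Col19a1 by 1.60 ± 0.31, Col16a1 by 0.68 ± 0.12 and Col12a1, a tension-associated collagen, by 0.55 ± 0.11. Col14a1 did not pass the test (log2 fold change -0.11 ± 0.13, adjusted p = 0.473), with 4 regions lost and 3 gained among its 10. At Col16a1 the region farthest outside the gene, chr4:130036707-130037636, read 83.8 and 75.7 CPM in PB3-Parental and 7.89 and 7.20 in PB3-ERI-R (log2 fold change -3.40 ± 0.16, adjusted p = 1.25e-09). Without it, summing regions inside or within 10 kb of the gene, Col16a1 changed by -0.15 (adjusted p = 0.343).

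The beaded filament collagens make the type VI network around cells. Col6a1 (chr10:76708792-76726044, 3 regions) read 65.7 and 51.7 CPM in PB3-Parental, 25.6 and 20.7 in PB3-ERI-R, 61.4 and 52.2 in PB3-PAC-R, and 60.9 and 38.3 in PB3-VIN-R. PB3-ERI-R was lowest (log2 fold change -1.34 ± 0.23, adjusted p = 0.000431), although regions inside or within 10 kb alone did not pass the test (-0.71, adjusted p = 0.0739). Col6a3 (chr1:90766860-90844001, 8 regions) read 211 and 175 CPM in PB3-Parental, 49.2 and 73.03 in PB3-ERI-R, 178 and 157 in PB3-PAC-R, and 201 and 160.1 in PB3-VIN-R. Its PB3-ERI-R libraries lay below the rest (log2 fold change -1.66 ± 0.19, adjusted p = 2.39e-05). Col6a2, next to Col6a1, did not pass the test (log2 fold change -0.62 ± 0.26, adjusted p = 0.0641), but did so in 8 of the 21 alternatives run. The region over its starts, chr10:76623293-76623673, read 8.43 and 5.52 CPM in PB3-Parental and 8.92 and 5.98 in PB3-ERI-R and did not pass the test (0.10 ± 0.33), in contrast to the starts of Col7a1 and Col18a1. Col28a1 (chr6:7997100-8193709, 3 regions), a von Willebrand domain collagen, read 76.7 and 62.4 CPM in PB3-Parental, 33.8 and 38.03 in PB3-ERI-R, 70.8 and 80.2 in PB3-PAC-R, and 67.4 and 48.9 in PB3-VIN-R. It was lowest in PB3-ERI-R (log2 fold change -0.96 ± 0.17, adjusted p = 0.000642).

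The short-chain genes Col8a1 and Col8a2, whose products pair in the sheet of the eye's Descemet membrane and in vessel walls, moved in opposite directions. Col8a1 (chr16:57624256-57754737, 6 regions) read 102 and 117 CPM in PB3-Parental, 31.8 and 40.7 in PB3-ERI-R, 117 and 116 in PB3-PAC-R, and 106 and 104 in PB3-VIN-R. It fell in PB3-ERI-R without overlap (log2 fold change -1.60 ± 0.13, adjusted p = 2.06e-06). The region that begins 480 bases upstream of its start, chr16:57755217-57755814, just beyond the 250 bases shown above, read 12.5 and 13.8 CPM in PB3-Parental, 0.186 and 0.332 in PB3-ERI-R, 18.1 and 15.4 in PB3-PAC-R, and 14.2 and 15.9 in PB3-VIN-R. It was among the deepest losses of all (log2 fold change -5.66 ± 0.39, adjusted p = 1.41e-08). Col8a2 (chr4:126286794-126314330, 2 regions) read 22.98 and 24.6 CPM in PB3-Parental, 61.2 and 45.8 in PB3-ERI-R, 21.8 and 16.5 in PB3-PAC-R, and 21.7 and 19.5 in PB3-VIN-R. PB3-ERI-R was highest here (log2 fold change 1.17 ± 0.19, adjusted p = 0.000289).

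Region by region, 113 of the 194 collagen regions were lost in PB3-ERI-R (58.2%, all regions 37.6%), 44 were gained (22.7%, all regions 35.4%) and 37 did not pass the test. Basement membrane regions split 41 lost and 8 gained of 59, fibrillar regions 28 and 11 of 48, and transmembrane regions 7 and 9 of 20. Besides those named above, chr2:27892162-27892472 inside Col5a1 was among the most changed, at 13.9 and 15.8 CPM in PB3-Parental and 0.372 and 0.332 in PB3-ERI-R (log2 fold change -5.36 ± 0.36, adjusted p = 1.09e-08). Few collagen regions lay at an end of the gene body: 12 (6.19%) were within 1 kb of one, against 25.1% of all regions with a gene. The window before the Col27a1 start, inside the annotated gene body, overlapped a region that is not among them. Of these 12, 6 were lost and 1 gained, while over all genes 10.9% of such regions were lost and 43.9% gained. Inside the gene body 59.3% of 135 collagen regions were lost (all genes 45.4%), and outside it 57.4% of 47 (all genes 39.1%), so the share lost was above that of all genes in each place.

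**Figure D4:**
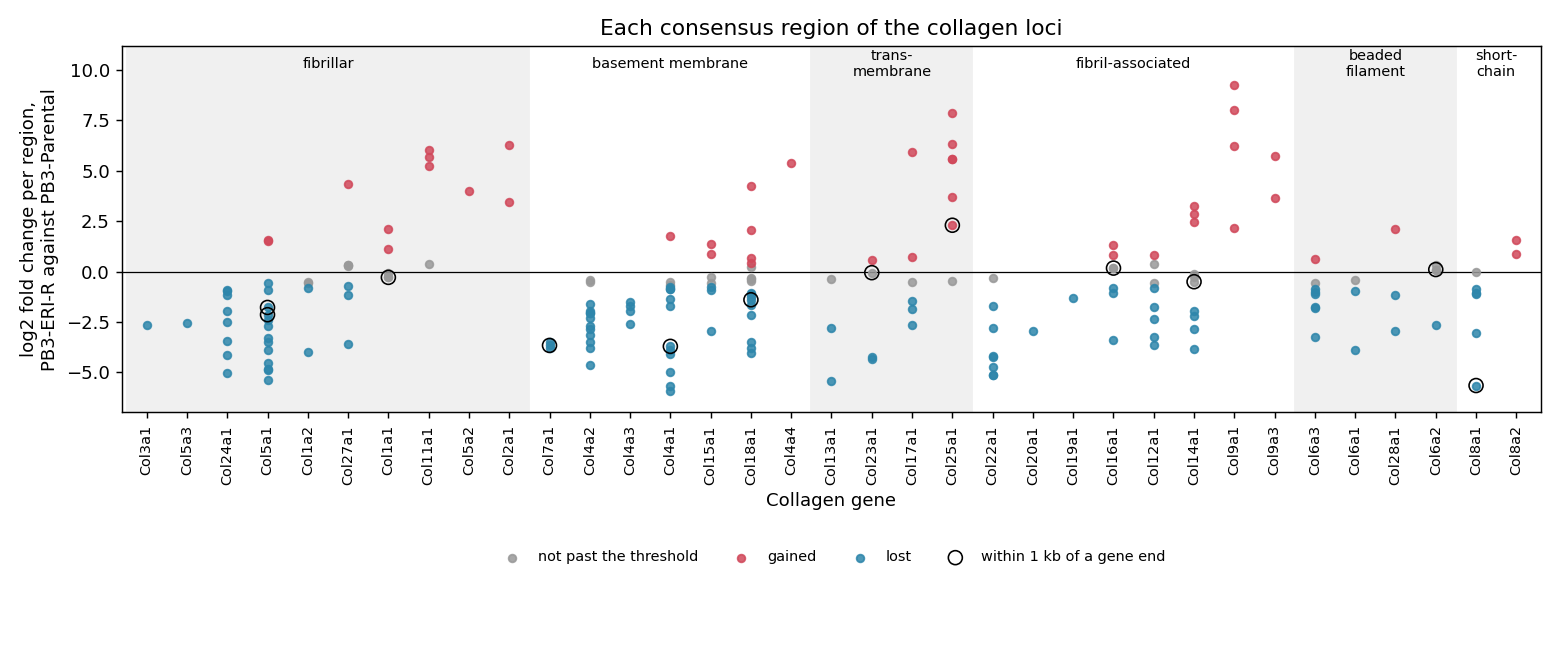
Log2 fold change of each of the 194 collagen regions in PB3-ERI-R against PB3-Parental, in columns by gene and grouped by class, with rings on the 12 regions within 1 kb of a gene end. Blue points (113 lost) fill most basement membrane columns, red points (44 gained) fill those of Col25a1, Col9a1, Col9a3 and Col2a1, and columns such as Col18a1, Col14a1 and Col17a1 hold both.

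Of the 12 regions near a gene end, those of Col7a1, Col4a1, Col18a1, Col8a1 and Col5a1 (2 regions) were lost and that of Col25a1 was gained. The 5 that did not pass the test were at Col1a1, Col6a2, Col14a1, Col16a1 and Col23a1, with log2 fold changes of -0.51 to 0.17. Gained and lost regions shared a locus at 12 of the 29 collagen loci with 2 or more regions (41.4%, all such loci 41.9%). Among loci with 3 or more regions the share was 46.2% for collagens and 56.0% for all, and with 7 or more, 69.2% (9 of 13) and 82.5%. In the authors' deposited peak lists, 68.0% of the collagen regions (95% exact interval 61.0 to 74.5) overlapped a peak of PB3-Parental, 70.1% (63.1 to 76.5) of PB3-PAC-R, 78.4% (71.9 to 83.9) of PB3-VIN-R and 35.1% (28.4 to 42.2) of PB3-ERI-R. Over all regions the shares were 64.6, 67.4, 78.8 and 52.4%. Regions with a peak in every line but PB3-ERI-R made up 42.8% of the collagen regions and 26.9% of all regions, and regions with a peak in PB3-ERI-R alone 15.5 and 16.9%.

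No collagen locus or region passed the test in PB3-PAC-R. At an unadjusted p under 0.05 stood 5 loci (849 of all 14903) and 11 regions (3316 of all 57415). DESeq2 called 0 of either, and over all features edgeR called 0.114% of loci and 0.0853% of regions. Collagen loci ranged from -0.56 to 0.71 on the log2 scale with a median of -0.11, and the highest was Col3a1 (log2 fold change 0.71 ± 0.23, adjusted p = 0.557). In PB3-VIN-R no locus passed either (DESeq2 0, all loci 0.678%), with a range of -0.49 to 0.65. At an unadjusted p under 0.05 stood 3 loci (1070 of all 14903). The smallest p was that of Col25a1 (log2 fold change 0.56 ± 0.14, adjusted p = 0.149), with 20.01 and 21.2 CPM against 12.6 and 15.3 in PB3-Parental.

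In PB3-VIN-R 2 of 194 collagen regions were called (all regions 0.678%, DESeq2 2), at a transmembrane and a fibrillar gene. At an unadjusted p under 0.05 stood 21 collagen regions (5667 of all 57415). In Col25a1, chr3:130564668-130565100 read 0.361 and 0.133 CPM in PB3-Parental, 22.8 and 19.6 in PB3-ERI-R, 0.432 and 0.548 in PB3-PAC-R, and 1.87 and 1.83 in PB3-VIN-R. PB3-VIN-R lay above PB3-Parental and PB3-PAC-R and below PB3-ERI-R, with a gain in PB3-VIN-R (log2 fold change 2.84 ± 0.44, adjusted p = 0.0117) and one in PB3-ERI-R (log2 fold change 6.35 ± 0.39, adjusted p = 5.92e-09). At Col1a1, chr11:94955191-94955472, 2.15 kb beyond the gene, read 4.51 and 5.12 CPM in PB3-Parental, 21.8 and 20.5 in PB3-ERI-R, 3.02 and 2.60 in PB3-PAC-R, and 0.877 and 0.957 in PB3-VIN-R. It fell in PB3-VIN-R (log2 fold change -2.38 ± 0.29, adjusted p = 0.00395) and rose in PB3-ERI-R (log2 fold change 2.13 ± 0.25, adjusted p = 2.23e-06), both against the same PB3-Parental libraries. Both calls were lost when either library of PB3-VIN-R was left out (adjusted p = 0.0517 and 0.0958 for Col1a1, 0.0729 and 0.118 for Col25a1), and that of Col25a1 without the second library of PB3-Parental (0.131).

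Set directly against the other resistant lines, PB3-ERI-R showed nearly the same picture. Against PB3-PAC-R 22 collagen loci fell and 8 rose (all loci 30.9% and 29.4%), and against PB3-VIN-R 22 fell and 8 rose (all loci 30.4% and 28.2%). These comparisons share the PB3-ERI-R libraries with the one against PB3-Parental. Median changes were -0.69 and -0.67. Col27a1 and Col23a1 fell against PB3-Parental but not past the threshold against either resistant line, with -0.09 and -0.19 against PB3-PAC-R and -0.22 and -0.25 against PB3-VIN-R. Between PB3-PAC-R and PB3-VIN-R no collagen locus passed the edgeR test (DESeq2 1, all loci 0.0336%) and no region (all regions 0.00871%). At an unadjusted p under 0.05 stood 10 regions (2491 of all 57415) and 3 loci (640 of all 14903). The smallest p was again that of Col25a1 (log2 fold change -0.81 ± 0.14, adjusted p = 0.173).

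Genes that make, crosslink, bind or degrade collagen held both falls and rises in PB3-ERI-R. Of 48 such genes 45 had a region, of which 20 fell (44.4%, all loci 30.3%) and 14 rose (31.1%, all loci 28.0%), and the other 11 stayed short of the threshold (median log2 fold change -0.02). With copy number offsets 14 fell and 12 rose of the 44 given a value, while over all 14903 loci 4986 fell and 3629 rose. The share that fell was thus no longer above that of all loci. With these offsets 2 that had fallen, Plod2 and Itga1, rose instead (0.87 and 0.37). Falls included Itgb1, the beta 1 chain of the collagen-binding integrins, from 235 and 228 CPM in PB3-Parental to 89.4 and 81.8, and Adamts14, which trims the ends of procollagens, from 207 and 162 CPM in PB3-Parental to 39.97 and 36.8. Ddr2, a receptor for fibrillar collagen, fell from 88.5 and 49.3 CPM in PB3-Parental to 3.67 and 4.66, and the crosslinking enzyme genes Lox and Loxl3 by 4.07 and 5.00. Adamts3, another procollagen protease, rose from 5.94 and 9.999 CPM in PB3-Parental to 143 and 112. These 6 kept their direction with the offsets. In PB3-PAC-R and PB3-VIN-R none of the 45 passed the test (all loci 0.114% and 0.678%). At an unadjusted p under 0.05 stood 2 and 4 of them, against 849 and 1070 of all 14903 loci.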

How the data were processed

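ATAC-seq was measured in 8 libraries of 4 PB3 lines, 2 per line. The authors deposited whole-number counts per consensus region, and 1 peak list per line with a score, a fold enrichment and −log10 p and q values. Only the intervals and scores of the peak lists were used. The other deposited values, text columns that locate the regions, place them on mm10. Per the submitters' processing notes, Bowtie2 2.2.6, MACS2 2.1.1, featureCounts, Picard, cutadapt 1.9.1, deepTools and bcl2fastq 2.20.0.422 were used with mm10 (GRCm38). Settings, and the choice of reads or fragments as the unit counted, are not given in the sources here.

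Regions were joined to RefSeq GRCm38.p6 protein-coding genes by distance to the gene body, and counts were summed per gene. Overlaps with the deposited peak lists were found with bedtools 2.31.1. Of 57417 regions 48280 had a gene, and 1662 tied between genes, 1 of them a collagen region. All 57415 regions and 14903 loci that passed filterByExpr were fitted with edgeR 4.0.16 (TMM, quasi-likelihood, 1 term per line, all 8 libraries), so every collagen region and locus with a region was tested. SEs were derived from the F statistic (log2 fold change over its square root). Residual degrees of freedom were 4, and the biological coefficient of variation was 0.161 for regions and 0.112 for loci. Ratios of summed counts have exact 95% binomial intervals, which, like the floor of 3 counts per library (0.114 to 0.332 CPM), cover counting error only. The script was tested on simulated data. Alternatives used DESeq2 1.42.0, other scalings, filters, gene distances, copy number offsets, a replicate block and leaving out each library.

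The members and lists were chosen with earlier results of these data known. Named with all libraries were the 3 loci of each class with the smallest adjusted p and a fixed list of 9 genes. Named regions were the 5 gained and 5 lost with the largest change at an average log2 CPM of at least 2, 1 per gene, and those within 1 kb of the ends of named genes. Others named were chosen after their values were seen. Of the collagen-handling genes, the 6 with the smallest adjusted p were named.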

Additional observations from a re-analysis of the deposited data

Results flagged for a closer look

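The region chr11:94955191-94955472, 2.15 kb beyond Col1a1, moved in opposite directions in 2 resistant lines. It was above PB3-Parental in PB3-ERI-R and below it in PB3-VIN-R, and the direct contrast of these lines gave a log2 fold change of 4.52 ± 0.29 (edgeR, adjusted p = 5.08e-09). Of the authors' deposited peak lists, only that of PB3-ERI-R held a peak there.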

How the results depend on the processing

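Of the 35 collagen loci, 25 kept their call in PB3-ERI-R against PB3-Parental in each of the 21 alternatives where they had a region to test. The calls of Col1a2 and Col11a1 were lost only with copy number offsets. Col1a1 turned to -0.59 inside the gene body only and to -0.66 with only the regions within 1 kb of a gene end. In the region fit no Col1a1 region was lost, and the lowest log2 fold change was -0.30. Each set of sums was scaled anew, and the cause of the difference was not tested. Within 1 kb of a gene end only 11 loci could be tested, and 8 passed against PB3-Parental (1 higher, 7 lower). Of all 10358 loci tested there, 2174 were higher and 2104 lower. The 7 included Col1a1 and Col14a1, whose regions near a gene end did not pass in the region fit. Against PB3-PAC-R 8 passed (all loci 2282 higher, 2351 lower), and against PB3-VIN-R 8 (all loci 2142 higher, 2202 lower). The other settings gave 28 to 33 called loci against PB3-Parental. Without a scaling factor the collagen regions split 37 gained and 132 lost, while over all 57415 regions 14862 were gained and 25149 lost. With loess offsets the collagen regions split 50 and 101, and all regions 23960 and 20118. The median of all regions moved from 0.07 to -0.29 without a scaling factor and to 0.20 with loess offsets.

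With a replicate block, 9 of 194 collagen regions passed in PB3-VIN-R against PB3-Parental (6 higher, 3 lower) and 2 loci (1 higher, 1 lower). Over all 57415 regions 1397 were higher and 1320 lower, a share near that of the collagen regions. Of all 14903 loci 285 were higher and 194 lower. Between PB3-PAC-R and PB3-VIN-R 1 collagen locus passed with the block (all loci 10 higher, 48 lower), as with DESeq2 (1, all loci 10 higher, 23 lower). Leaving out 1 library gave 0 to 3 regions in PB3-VIN-R: 1 without the second library of PB3-Parental, 0 without either of PB3-VIN-R and 3 without either of PB3-PAC-R. Deviations of same-numbered libraries correlated at 0.0729 to 0.446 between lines, and 2 libraries a line share only a number. With 10521964 to 24052237 counts a library, regions of a few counts in a line have wide intervals.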
